A study of Mus musculus with 6 samples.

Results

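The carbonic anhydrases of differentiating mouse muscle cells were followed through 6 RNA-sequencing libraries. The family was taken as 9 genes, *Car2*, *Car3*, *Car4*, *Car5b*, *Car8*, *Car9*, *Car12*, *Car13* and *Car14*, found by symbol among the 55401 genes of the count table. The family was chosen by the measured difference of *Car3* between the 2 groups of the study, the smallest p-value of all genes tested, so that difference is described here without a test. The other 8 genes were listed as family members with that result known.

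The cells were C2C12, an established line of mouse myoblasts that fuse into myotubes when serum is lowered. Both groups were grown in DMEM with 2% horse serum and harvested 2 d post differentiation. The *Phf2* KO cells had received a pool of 4 guide plasmids against *Phf2*, which encodes a histone demethylase, together with Cas9 and the fluorescent marker ZsGreen. The control cells, labelled wild type, were mock cells that received the same kind of plasmid with a guide that has no match in the mouse genome. ZsGreen-positive cells were sorted and were not cloned to single cells, so each group was 1 sorted pool that can hold edited and unedited alleles. There were 3 libraries per group. By the study's description these were wells of 1 experiment, so p-values measured the spread between wells of the same pools. In these bulk samples, fewer cells of a type and less RNA per cell cannot be told apart.

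Carbonic anhydrases interconvert carbon dioxide and water with bicarbonate and a proton, and most hold a zinc ion in the active site by histidine side chains. They set the pace at which carbon dioxide leaves a tissue and at which protons are buffered, and they supply bicarbonate to carboxylases. *Car2* and *Car13* encode cytosolic enzymes. *Car3* encodes a cytosolic enzyme of low activity that is abundant in slow muscle fibres, fat and liver. *Car5b* encodes a mitochondrial form, *Car4* a form tied to the outer membrane by a lipid anchor, and *Car9*, *Car12* and *Car14* forms that cross the membrane with the active site outside. *Car8* encodes a member without the catalytic activity.

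The stretch of coding sequence around the zinc site was read from the GENCODE M21 transcripts (GRCm38, the assembly also called mm10) because it holds the site that defines the enzyme. The capitals mark the codons aligned with the 3 zinc-binding histidine codons of *Car2*. The stretch lies in exons 3 and 4 of *Car3* (chr3:14866844-14868363, plus strand), *Car2* (chr3:14895063-14895549, plus strand) and *Car13* (chr3:14650700-14654898, plus strand), and in exons 4 and 5 of *Car5b* (chrX:163990506-163991428, minus strand) and *Car9* (chr4:43508958-43509132, plus strand). Each is printed as spliced, 5′ to 3′.
Car3: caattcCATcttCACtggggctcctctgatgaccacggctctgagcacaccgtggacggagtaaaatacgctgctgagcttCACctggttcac
Car2: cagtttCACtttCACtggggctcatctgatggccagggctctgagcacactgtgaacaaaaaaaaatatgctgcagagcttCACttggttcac
Car13: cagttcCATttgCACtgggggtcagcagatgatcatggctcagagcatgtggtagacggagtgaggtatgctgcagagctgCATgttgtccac
Car5b: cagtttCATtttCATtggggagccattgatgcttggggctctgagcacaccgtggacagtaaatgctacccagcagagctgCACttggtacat
Car9: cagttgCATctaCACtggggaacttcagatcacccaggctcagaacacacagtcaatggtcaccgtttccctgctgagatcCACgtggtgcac

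Each of the members printed held a histidine codon at all 3 marked positions. Over the whole coding sequence, *Car3* was closest to *Car2* (63.5% identical bases of 780 aligned) and *Car13* (61.5%), followed by *Car5b* (54.0%). The membrane-bound members *Car14*, *Car9*, *Car12* and *Car4* shared 44.9 to 49.0% of aligned bases with *Car3*. No window of 50 bases of any member's annotated transcripts occurred in another member. Reads of the members were therefore not exchangeable at this length. *Car3*, *Car2*, *Car13*, *Car12* and *Car4* shared no such window with any other gene of the annotation. For *Car5b*, 3.79% of windows also occurred in other genes, for *Car9* 4.76% and for *Car14* 15.7%. *Car9* overlaps the antisense gene *Gm12454* and *Car14* overlaps *Aph1a* on the opposite strand. The kit kept strand, but whether the counting used it is not given in the sources used here, so the values of *Car9* and *Car14* are uncertain to that extent. *Car8* overlaps the pseudogene *Gm11799* on its own strand and a miRNA gene on the other, and its values are uncertain too.

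Levels are given in CPM, the deposited estimated counts scaled by library size and TMM factors, or in TPM, which are also divided by transcript length. Only TPM are used to compare the level of one gene with that of another. Total estimated counts ran from 52526109 to 67502788 per library. *Phf2* itself was 102, 95.5 and 105 CPM in the control libraries and 41.1, 37.6 and 38.6 CPM in the KO libraries, or 38.8% of the control mean. The groups did not overlap (log2 fold change -1.37, SE 0.055). Of 17310 genes tested, 557 were higher and 565 lower in the KO cells at an adjusted p under 0.05 (edgeR quasi-likelihood test, Benjamini-Hochberg).

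Levels per transcript length were compared first, within each group. *Car3* was the leading carbonic anhydrase of the control cells, at 395.8 ± 20.4 TPM (SD, n = 3). *Car13* followed at 131.3 ± 7.56 TPM. *Car2*, *Car5b* and *Car9* lay lower, at 20.4 ± 2.21, 18.4 ± 2.84 and 13.3 ± 2.73 TPM, and each overlapped the next in that order. *Car8* stood at 1.55 ± 0.096 TPM. *Car12* and *Car14* did not exceed 0.110 TPM in any control library and overlapped each other, and *Car4* was listed at 0 in all 6 libraries. Cytosolic forms thus took the first 3 places by mean level, ahead of the mitochondrial form and the hypoxia-inducible membrane form *Car9*.

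The order was the same in the *Phf2* KO cells. *Car3* was at 868.0 ± 5.79 TPM, *Car13* at 158.2 ± 1.27 TPM and *Car2* at 28.3 ± 2.04 TPM. *Car5b* and *Car9* overlapped, at 15.6 ± 1.19 and 12.9 ± 1.33 TPM. *Car8* was at 2.12 ± 0.544 TPM, and *Car12* and *Car14* overlapped between 0.0144 and 0.149 TPM. *Car2* overlapped *Car5b* in the control cells but not in the KO cells.

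**Figure D1:**
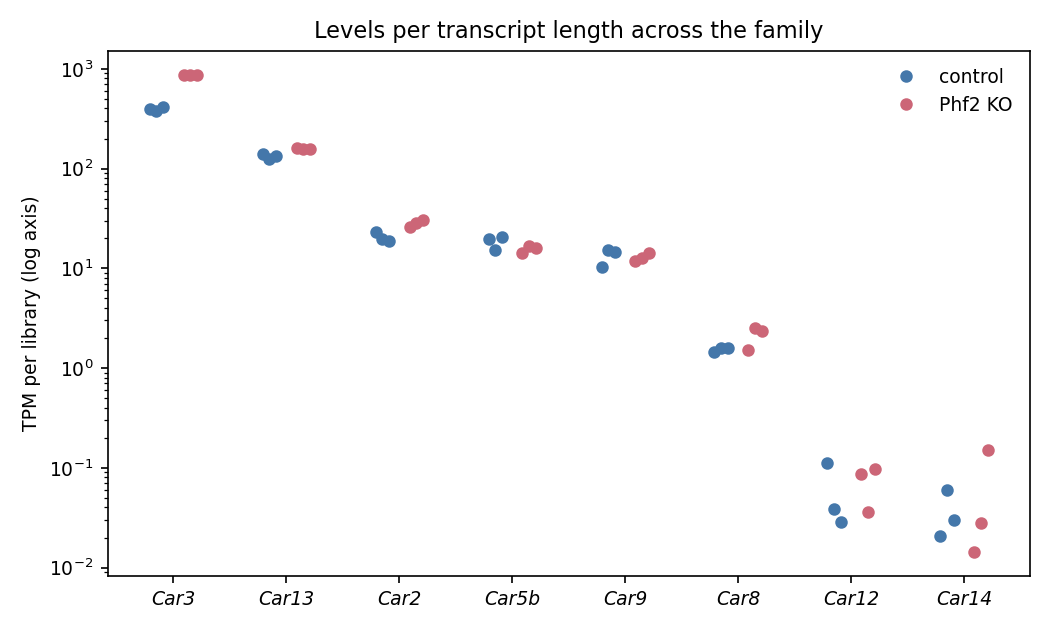
TPM of the members in each library on a log axis, with control libraries in blue and *Phf2* KO libraries in red, in the order of the control means; *Car4*, listed at 0 throughout, is left out. *Car3* stands highest in all 6 libraries, between 373.9 and 414.3 TPM in the control and between 862.5 and 874.0 TPM in the KO cells.

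*Car3* was 310.4, 291.6 and 319.5 CPM in the control libraries and 680.9, 667.4 and 656.9 CPM in the KO libraries. The groups lay far apart, with every KO library above every control library. The mean went from 307.2 ± 14.3 to 668.4 ± 12.02 CPM (SD, n = 3), a 2.18-fold difference (log2 fold change 1.12, SE 0.043). The spread between libraries was small, with a coefficient of variation of 4.64% in the control and 1.80% in the KO cells. *Car3* came first by p-value among the genes tested by the quasi-likelihood test, which is what picked it. By exactTest of edgeR, the test of the study, *Phf2* had a smaller adjusted p than *Car3*. By size *Car3* was not first: 63 genes past the threshold had a larger absolute log2 fold change. It was 17th of the 557 higher genes by fold change. Among higher genes whose mean level reached 100 CPM, 0 had a larger log2 fold change than *Car3*. A choice by smallest p-value favours genes of high level and large change, so nothing is read from that place. The median absolute log2 fold change of all genes past the threshold was 0.33. By TPM, *Car3* ranked between 325 and 356 among all genes in the control libraries and between 147 and 151 in the KO libraries.

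The cytosolic partner *Car13* was 147.6, 132.2 and 140.0 CPM in the control libraries and 171.4, 166.5 and 163.7 CPM in the KO libraries. The groups did not overlap and the lowest KO library was 163.7 CPM. The mean was 139.9 ± 7.73 CPM in the control and 167.2 ± 3.91 CPM in the KO cells, 1.19-fold higher (log2 fold change 0.26, SE 0.049, adjusted p = 0.00603, edgeR). Without control replicate 2, which was the lowest library for *Car13*, the log2 fold change was 0.22 and the adjusted p was 0.0510 (edgeR).

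*Car2*, the cytosolic enzyme of high activity, was 18.6, 15.6 and 15.2 CPM in the control libraries and 20.7, 23.2 and 24.2 CPM in the KO libraries. The highest control library stayed below the lowest KO library. The mean went from 16.4 ± 1.85 to 22.7 ± 1.80 CPM, 1.38-fold higher (log2 fold change 0.46, SE 0.098, adjusted p = 0.0112, edgeR). The call was lost when control replicate 2, KO replicate 2 or KO replicate 3 was left out, with adjusted p = 0.0727, 0.0564 and 0.0745. On log2(TPM + 1) with limma the difference was of the same size for both genes, 0.27 for *Car13* and 0.46 for *Car2*, with adjusted p = 0.0692 and 0.0933.

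**Figure D2:**
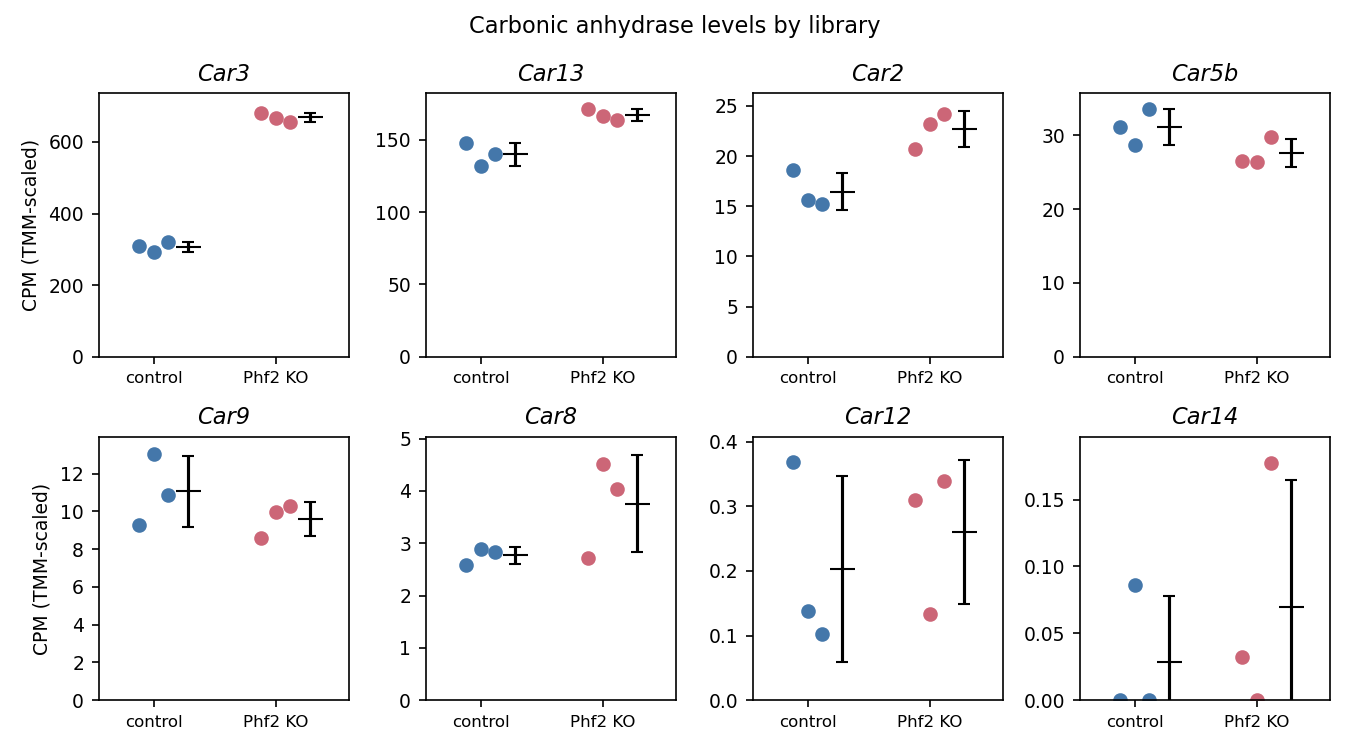
CPM of 8 members in the 3 control libraries (blue) and 3 *Phf2* KO libraries (red), with the group mean ± SD as a black bar beside the points; each axis starts at 0 and has its own scale. *Car3*, *Car13* and *Car2* have every KO library above every control library, and the groups of the other 5 genes overlap.

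The mitochondrial form *Car5b* was 31.2, 28.6 and 33.5 CPM in the control libraries and 26.5, 26.4 and 29.7 CPM in the KO libraries. The third KO library lay within the control range. The means were 31.1 ± 2.46 and 27.6 ± 1.86 CPM (log2 fold change -0.17, SE 0.079, adjusted p = 0.245, edgeR), a difference that did not pass the test.

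*Car9*, a membrane form known for its induction by low oxygen, was 9.28, 13.0 and 10.9 CPM in the control libraries and 8.58, 9.98 and 10.3 CPM in the KO libraries. The groups overlapped. The log2 fold change was -0.20 (SE 0.14, adjusted p = 0.474, edgeR) on counts and -0.03 on log2(TPM + 0.1).

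*Car8*, the member without the catalytic activity, was 2.58, 2.88 and 2.83 CPM in the control libraries and 2.72, 4.51 and 4.03 CPM in the KO libraries. KO replicate 1 sat among the control libraries and the other two lay above them. The log2 fold change was 0.44 (SE 0.21, adjusted p = 0.279, edgeR), close in size to that of *Car2* but with a larger error at this depth.

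*Car12* had 21, 8 and 6 estimated counts in the control libraries and 19, 7 and 23 in the KO libraries, and *Car14* had 0, 5 and 0 against 2, 0 and 12. A sequenced read pair added about 4 to the estimated counts, so that the limit of 3 read pairs was 12 estimated counts, between 0.178 and 0.228 CPM. The values of both genes straddled or lay at or under this limit, and no difference between the groups was detectable at this depth. *Car4* had a count of 0 in all libraries. Of the 3 membrane forms with these low levels only *Car12* passed the filter on low counts.

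In all, 7 of the 9 members passed that filter, 5 with a mean higher in the KO cells and 2 with a lower one. The 3 members past the threshold were *Car3*, *Car13* and *Car2*, each higher in the KO cells, where 6.48% of all genes tested passed it in either direction, 3.22% in the higher and 3.26% in the lower direction. The same 3 had groups without overlap, which held for 25.1% of all genes tested in either direction, 12.9% in the higher and 12.2% in the lower direction. *Car3* passed by the way it was picked, so nothing is read from these counts.

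The makeup of the family moved with *Car3*. The summed TPM of the 9 members was 580.9 ± 28.2 in the control and 1085.4 ± 8.90 in the KO cells. *Car3* made up 67.4, 68.1 and 68.8% of that sum in the control libraries and 80.3, 79.9 and 79.8% in the KO libraries. *Car13* made up 22.6 ± 0.714% and 14.6 ± 0.135%. These shares are ratios within a library and do not depend on how libraries are scaled. The ratio of *Car3* to *Car13* by TPM was 2.88, 3.03 and 3.13 in the control libraries and 5.45, 5.50 and 5.51 in the KO libraries. The ratio of *Car3* to *Car2* was 17.4, 19.2 and 22.0 against 33.2, 30.0 and 29.0. As these ratios carry the value that picked *Car3*, they are given without a test.

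*Car3*, *Car13* and *Car2* share a place in the genome that the list did not use. In the files' coordinates (mm10), *Car13* lies at chr3:14641727-14663002, *Car1* at chr3:14766216-14808368 on the minus strand, *Car3* at chr3:14863512-14872523 and *Car2* at chr3:14886273-14900770. *Car13* and *Car1* are 103.2 kb apart, *Car1* and *Car3* 55.1 kb, and *Car3* and *Car2* 13.7 kb. Besides *Car3*, which was picked for its difference, *Car13* and *Car2* had higher KO groups without overlap, as had 12.9% of all genes tested, with log2 fold changes of 0.26 and 0.46. The 4 other members tested lie at chr4:8143362-8239041 (*Car8*), chr4:43506966-43513729 (*Car9*), chr9:66713686-66766845 (*Car12*) and chrX:163976822-164027997 (*Car5b*), and none of them passed the threshold by edgeR or DESeq2, with log2 fold changes between -0.20 and 0.44 and 1 of the 4 at an unadjusted p under 0.05. *Car14* lies on the same chromosome as the cluster but far from it, at chr3:95897768-95904691, and *Car4* lies at chr11:84957786-84966044.

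*Car1*, the nearest listed gene on the lower side of *Car3*, encodes the cytosolic form best known from red blood cells and was not among the 9. It had 23, 17 and 6 estimated counts in the control libraries and 45, 25 and 30 in the KO libraries. The groups did not overlap, but the levels were near the limit of the depth and the difference did not pass the test (log2 fold change 1.04, SE 0.58, adjusted p = 0.360, edgeR). On the upper side *Car2* comes first, and the next gene, *A930001A20Rik*, had a count of 0 in 5 libraries and was not tested. Within 1000 kb of the start of *Car3*, 24 genes other than members are listed, and only 4 had enough reads to be tested. Of these 4, 1 passed, where 6.48% of all genes tested passed in either direction and 3.22% in the higher one. *Lrrcc1*, *E2f5* and *Car1*, 3 of the 4, had higher KO groups without overlap, as had 12.9% of all genes tested. Nothing is read from these counts. *Lrrcc1*, which encodes a centrosomal protein and starts at -329.7 kb from the start of *Car3*, was 35.2, 32.5 and 34.7 CPM in the control libraries and 40.8, 38.3 and 47.7 CPM in the KO libraries (log2 fold change 0.31, SE 0.079, adjusted p = 0.0315, edgeR). The call for *Lrrcc1* was kept without KO replicate 2 and lost when any of the other 5 libraries was left out, with adjusted p between 0.0522 and 0.160. It was also lost on log2(TPM + 1) with limma (adjusted p = 0.455). *E2f5* (log2 fold change 0.21, adjusted p = 0.244) and *Rbis* (0.11, adjusted p = 0.520) did not pass.

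**Figure D3:**
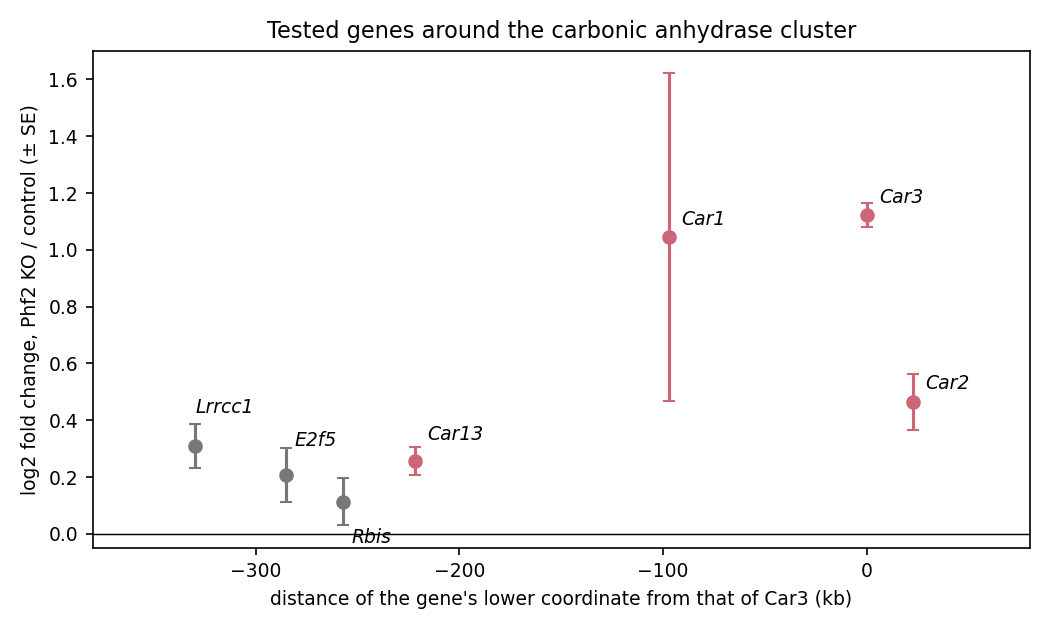
Log2 fold change ± SE of the tested genes within 1000 kb of *Car3*, plotted against the distance of their lower coordinate from that of *Car3* in kb, with carbonic anhydrases in red and other genes in grey. All 7 points lie above 0, as do 8612 of all 17310 genes tested, and run from 0.11 for *Rbis* to 1.12 for *Car3*. *Car3* was picked for its difference, and nothing is read from this count. The error bar of *Car1*, a gene of few counts, is the widest.

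The rest of the family was low in these cells. Of 7 further carbonic anhydrase genes in the table, 4 were tested, and 0 passed the threshold by edgeR or DESeq2, with 0 at an unadjusted p under 0.05. *Car11*, an inactive relative, was the most abundant of them, at 7.82, 5.60 and 5.50 CPM in the control and 8.68, 6.64 and 7.65 CPM in the KO libraries (log2 fold change 0.28, SE 0.17, adjusted p = 0.396, edgeR). The groups overlapped. *Car6* and *Car7* had log2 fold changes of -1.16 and -0.73 at no more than 1.06 CPM in any library, with adjusted p = 0.342 and 0.506. *Car5a*, the other mitochondrial form, and *Car10* had a count of 0 in all libraries.

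Genes that work beside the carbonic anhydrases were taken from 3 lists. Bicarbonate transporters carry the product of the reaction across membranes. They were listed as members of the *Slc4* and *Slc26* gene families, which can hold genes that do not carry bicarbonate. Of 15 listed, 7 were tested, and 0 were higher and 1 was lower past the threshold. Over all genes tested, 3.22% were higher and 3.26% lower past it, with a median log2 fold change of 0.00. The median of the 7 was -0.26, which was the value of *Slc4a11*, so it rests on a family member that may not carry bicarbonate. That gene was at 2.07 CPM in the control and 1.73 CPM in the KO cells and did not pass (adjusted p = 0.679, edgeR). The lower one was *Slc4a3*, an exchanger of chloride for bicarbonate, at 83.2, 81.8 and 71.4 CPM in the control and 47.6, 51.0 and 52.6 CPM in the KO libraries (log2 fold change -0.64, SE 0.064, adjusted p = 5.99e-05, edgeR). Its groups did not overlap. The transporters with the highest levels did not pass: *Slc4a2* was 162.1 ± 3.76 and 163.0 ± 6.24 CPM and *Slc4a7* 137.1 ± 5.67 and 141.3 ± 7.77 CPM.

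Proton and lactate transporters handle the other product and the acid load of glycolysis. The list also holds genes of accessory proteins that do not carry protons or lactate themselves. Of 20 listed, 16 were tested, with 1 higher and 1 lower past the threshold and a median log2 fold change of -0.06. Over all genes tested, 3.22% were higher and 3.26% lower past it. By exactTest of edgeR and by DESeq2 1 was higher and 2 were lower. The 1 higher gene was *Aqp1*, listed for carbon dioxide and not for protons or lactate. *Aqp1*, a water channel that also passes carbon dioxide, was 150.9, 121.4 and 119.7 CPM in the control and 211.8, 190.0 and 194.4 CPM in the KO libraries (log2 fold change 0.60, SE 0.092, adjusted p = 0.00773, edgeR). *Slc16a3*, the lactate exporter of glycolytic muscle, was 12.01, 15.3 and 14.9 CPM in the control and 7.30, 9.16 and 10.003 CPM in the KO libraries (log2 fold change -0.67, SE 0.14, adjusted p = 0.00898, edgeR). Neither gene had overlapping groups. Without control replicate 2, *Slc16a3* no longer passed (adjusted p = 0.0678, edgeR).

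Carboxylases use bicarbonate as a substrate. The list also holds genes that do not encode carboxylases, *Cad* among them, and not all of its genes encode users of bicarbonate. Of 10 listed, 9 were tested, with 0 higher and 1 lower past the threshold and a median log2 fold change of -0.03. Over all genes tested, 3.22% were higher and 3.26% lower past it. *Pcx*, the mitochondrial pyruvate carboxylase, was 44.3, 43.5 and 36.8 CPM in the control and 31.4, 30.9 and 29.6 CPM in the KO libraries (log2 fold change -0.44, SE 0.075, adjusted p = 0.00305, edgeR). Its groups did not overlap. *Pccb*, a subunit of propionyl-CoA carboxylase, and *Cad*, which starts pyrimidine synthesis, did not pass, with log2 fold changes of -0.16 and -0.09. On log2(TPM + 1) with limma, where fewer of all genes passed, *Slc4a3*, *Slc16a3* and *Pcx* kept their sign but not their call, with adjusted p = 0.0638, 0.189 and 0.103, and *Aqp1* kept both.

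**Figure D4:**
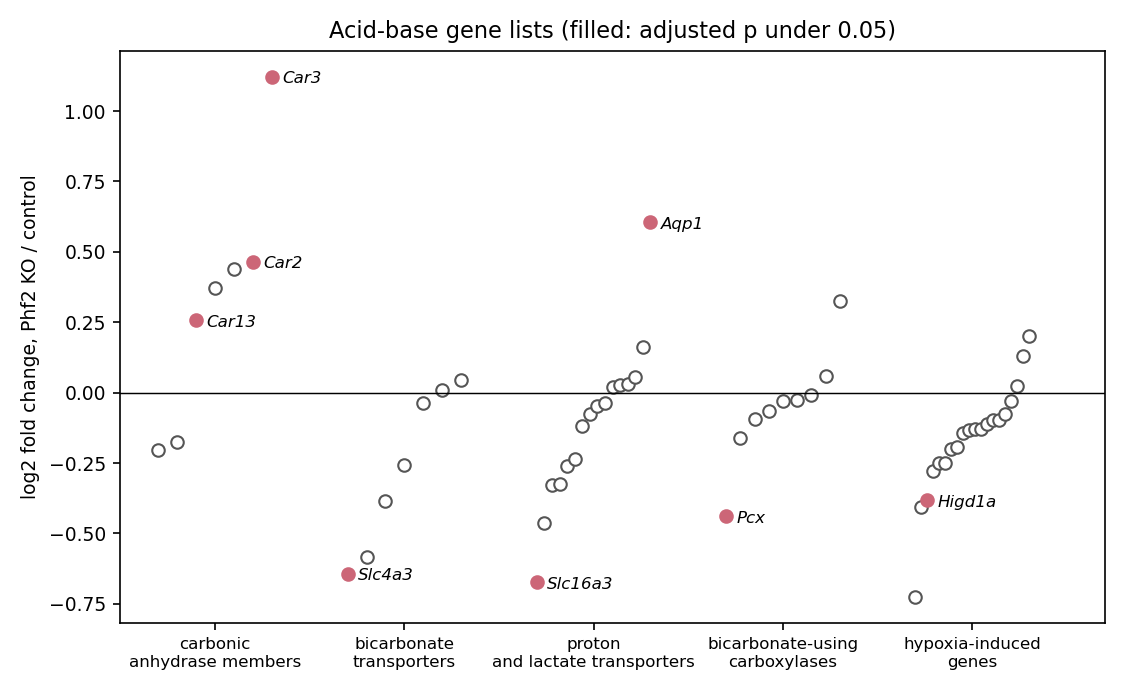
Log2 fold change of every tested gene of 5 lists, sorted within each list; filled red points are past an adjusted p of 0.05 over all genes tested and are named, and open points are not. Of the carbonic anhydrases 3 are past it, all above 0, and the other lists have 1 or 2 genes past it, of which *Aqp1* alone lies above 0.

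*Car9* and *Car12* belong to the genes that low oxygen induces, and a list of 20 such genes was set beside them. All 20 were tested, and 17 had a log2 fold change below 0, as had 8698 of all 17310 genes tested. The median was -0.13, against 0.00 over all genes tested. Of the 20, 7 had an unadjusted p under 0.05 (edgeR), as had 3366 of all genes tested. Only *Higd1a*, a mitochondrial protein, passed, at 25.0 ± 1.96 CPM in the control and 19.2 ± 1.21 CPM in the KO cells (log2 fold change -0.38, SE 0.085, adjusted p = 0.0154, edgeR). With the replicate number as a block, 5 of the 20 were lower past the threshold. Without control replicate 1 there were 4, and without control replicate 2, KO replicate 1 or KO replicate 3 there were 0. For *Higd1a* the adjusted p (edgeR) was then 0.0976, 0.0608 and 0.0585, and with limma on log2(TPM + 1) it was 0.158. *Ldha* was 522.2 ± 61.5 and 456.8 ± 38.1 CPM and *Pgk1* 485.3 ± 55.5 and 408.0 ± 35.7 CPM, both with overlapping groups. *Car9* had overlapping groups and did not pass, so nothing is read from its sign, and *Car12* was too low to tell.

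*Car3* is itself a gene of slow muscle fibres, and its higher level stood beside lower levels of the genes listed for that fibre type. Of 12 slow fibre genes, 10 were tested, and 8 were lower past the threshold and 0 higher. Over all genes tested, 3.26% were lower past it and 3.22% higher. The median log2 fold change of the 10 was -0.53. *Mb*, the oxygen store myoglobin, was 71.1, 68.5 and 59.9 CPM in the control and 34.3, 34.1 and 33.6 CPM in the KO libraries (log2 fold change -0.97, SE 0.066, adjusted p = 3.45e-06, edgeR). *Myh7b* and *Myh7*, slow myosin heavy chains, had log2 fold changes of -0.98 and -0.85. For *Myh7* the SE was 0.16 and the adjusted p was 0.0415 (edgeR). Its groups did not overlap by CPM but did by TPM, at 70.9, 23.8 and 17.3 in the control and 11.5, 11.5 and 35.9 in the KO libraries. Fast fibre genes were lower too, 6 of 12 tested past the threshold and 0 higher, with a median of -0.61. *Myh4*, *Myh1* and *Myh2*, the fast myosin heavy chains, had log2 fold changes of -1.10, -0.93 and -0.89. The counts past the threshold ranged from 4 to 9 for the slow and from 3 to 10 for the fast list when single libraries were left out. They were 5 and 3 without control replicate 2, 5 and 3 without KO replicate 2, and 4 and 3 without KO replicate 3. Without control replicate 1 the slow list had 4, and without control replicate 3 the fast list had 10.

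Markers of cell types were read beside *Car3*. All 8 myotube markers were detected, and 6 of 8 tested were lower past the threshold in the KO cells, as were 3.26% of all genes tested. Their summed level was between 6315 and 7412 TPM in the control and between 5091 and 5618 TPM in the KO libraries. Of the 5 markers of undifferentiated or dividing myoblasts 0 passed the threshold by edgeR or DESeq2 and 0 had an unadjusted p under 0.05, with sums of 86.8 to 90.2 and 86.2 to 96.4 TPM. Fat cells are rich in *Car3*. Of 10 adipocyte markers 4 were tested and 2 were higher past the threshold, as were 3.22% of all genes tested. These 2 were *Cebpa* (log2 fold change 0.65, SE 0.082, adjusted p = 0.000464, edgeR) and *Lpl* (0.34, SE 0.088, adjusted p = 0.0332, edgeR). The sum of the 10 went from between 35.8 and 46.2 TPM to between 56.1 and 61.3 TPM. The other tested markers, *Fabp4* and *Pparg*, had log2 fold changes of -0.75 and -0.05 and did not pass (adjusted p = 0.677 and 0.925, edgeR). *Lpl* lost its call when any 1 library was left out. The defining adipocyte genes *Lep* and *Retn* were listed at 0 in all libraries, *Plin1* did not exceed 0.00125 TPM and *Adipoq* did not exceed 0.028 TPM. Osteoclasts are rich in *Car2*, and their 7 markers, of which 2 were tested and 0 passed, summed to between 1.19 and 1.99 TPM in the control and between 0.616 and 1.51 TPM in the KO libraries. Red cells are rich in *Car1* and *Car2*, and their 7 markers, of which 2 were tested and 0 passed, summed to between 2.01 and 2.16 TPM and between 0.714 and 1.13 TPM, with *Hbb-bt*, *Hbb-bs* and *Gata1* listed at 0 in all libraries. By edgeR and DESeq2 these 0 calls were the same, and 0 of the osteoclast and 1 of the red cell markers had an unadjusted p under 0.05. The part that the lower myotube markers play in the differences of the carbonic anhydrases was not tested.

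The genes whose levels ran most like those of *Car3* over the 6 libraries were found by the root mean square difference between mean-centred log2 CPM profiles among the 10923 tested genes whose mean reached 5 CPM. They were *Sfrp2* at 0.103, *Rspo2* at 0.146, *Csf2rb* at 0.172, *Igfbp3* at 0.185 and *Cthrc1* at 0.188 log2 units. *Sfrp2* was 101.3, 91.3 and 116.0 CPM in the control and 206.1, 205.0 and 190.7 CPM in the KO libraries. The log2 fold changes of the 5 genes lay between 0.91 and 1.15, around that of *Car3*, as this choice makes them. None of the other 8 members was among them.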

How the data were processed

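Poly(A) RNA of 6 C2C12 samples (3 control, 3 *Phf2* KO) was sequenced from a strand-keeping kit. The authors aligned reads of 150 bp to mm10 with HISAT2 and counted per gene with StringTie, and the annotation is not given in the sources used here. The deposited matrix holds estimated counts for 55401 genes, already whole numbers. The deposited table of each library holds TPM, a signal per transcript length, and coverage. Dividing coverage by counts gave 75.0 bases per count in all libraries, so 1 pair of 150 bp reads adds about 4 counts if its mates do not overlap. Counting error is therefore larger than the counts alone show. TPM columns also include assembled loci, and reference gene rows were used.

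Groups and replicate numbers came from the labels. Low genes were dropped by filterByExpr at its minimum count of 10. Libraries were scaled by TMM, and groups were compared with the quasi-likelihood test of edgeR 4.0.16 in R 4.3.3 over 17310 genes, with Benjamini-Hochberg adjustment over all of them and a threshold of 0.05. Fold changes are KO over control with a prior count of 0.125. SD and SE carry the spread between libraries, and the limit of 3 read pairs covers counting error only. The alternatives were exactTest, DESeq2 1.42.0, its size factors, library size alone, other filters, counts divided by 4, limma 3.58.1 on log2 TPM, a replicate block and leaving out each library. Same-numbered libraries deviated together from their group means, although the study describes no pairing. The r values were 0.235, 0.258 and 0.168 over 10923 genes, against -0.241 to -0.0019 for other pairs. The main test did not use this pairing, so its SE and p-values are those of unpaired groups. The replicate number entered only as the block among the alternatives. On simulated counts for this comparison (17310 genes, 200 of them changed) the test called 81% of 2-fold and 72% of 1.5-fold changes, with 13 unchanged genes called. The changed genes were drawn only from genes above a minimum mean CPM, so these shares do not cover *Car12* or *Car1*. Each library was drawn independently, without the pairing described above.

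The members and lists were chosen with earlier results of these data known. Named genes were all members, *Phf2*, up to 5 genes of each list past the threshold by size of change (with the 2 highest by TPM where fewer than 2 passed), the neighbours of *Car3* past the threshold or nearest to it, and the 5 genes most like *Car3*. Some list genes and sequences are not reported here. Sequences were joined by identical gene identifiers, which 54349 genes had in GENCODE M21. With 3 against 3 libraries an exact permutation test cannot go below p = 0.1 and was not used.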

Additional observations from a re-analysis of the deposited data

How the results depend on the processing

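The log2 fold changes of the 7 tested members kept their sign in all 110 values from the alternatives that could be computed, and 8 of these, all of *Car2* or *Car13*, changed side of the threshold. *Car3* ranged from 1.09 to 1.15 when single libraries were left out. The members past the threshold were 1 on log2(TPM + 1) and 1 on log2(TPM + 0.1) with limma, and 1 to 3 with single libraries left out (1 without control replicate 2). *Car12* gave no value with a filter of 1 CPM in 3 libraries or with counts divided by 4. Neighbours of *Car3* past it were 0 and 0 with limma and 0 to 1 with single libraries left out. All genes past it were 127 and 153 with limma, and 468 to 1039 with single libraries left out (468 without control replicate 2, 577 without KO replicate 2 and 613 without KO replicate 3). With limma on log2(TPM + 1) and log2(TPM + 0.1), bicarbonate transporters had 0 and 0, proton and lactate transporters 1 and 1, carboxylases 0 and 0, hypoxia-induced genes 0 and 0, slow fibre genes 2 and 3, and fast fibre genes 2 and 3. DESeq2 gave 2 hypoxia-induced and 10 fast fibre genes, and no filter gave 3 fast fibre genes. Proton and lactate transporters had 3 past the threshold by exactTest and by DESeq2. With single libraries left out the ranges were 1 to 2 for proton and lactate transporters, 0 to 4 for hypoxia-induced genes, 4 to 9 for slow and 3 to 10 for fast fibre genes. The replicate block gave 5 hypoxia-induced genes and changed no other count of calls by over 1.5 times, with *Car13* at adjusted p = 0.00263 and *Car2* at 0.0176. The other carbonic anhydrases had 0 past the threshold in every alternative. The cause of these differences was not tested. Leaving out a library also leaves fewer samples.

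Each group is 1 sorted, uncloned pool with 3 libraries, so a difference between pools that is not due to *Phf2* cannot be told apart from the knockout. Depth limits *Car12*, *Car14* and *Car1*, whose values lay near 3 read pairs. Overlapping genes limit *Car8*, *Car9* and *Car14*.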
